A study of Homo sapiens with 9 samples.

Results

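Mitochondrial ribosomal proteins were described across 3 culture conditions of A549, an established line from a human lung adenocarcinoma. Members were the probe sets whose platform gene symbol starts with MRPL or MRPS followed by a digit. This gave 87 probe sets for 78 of the 14884 named genes. They comprised 48 proteins named for the large subunit, 25 named for the small subunit, 3 pseudogenes (MRPL45P2, MRPL42P5 and MRPS31P5) and 2 antisense transcripts (MRPL20-AS1 and MRPL23-AS1).

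All cells grew for 5 days in serum-containing medium. The attachment group was on ordinary plates in normal medium, the low attachment group on low-attachment plates in normal medium, and the FP001 group on low-attachment plates in medium holding 0.015% (w/v) of the additive FP001. Per the labels' protocols, cultures without FP001 received purified water in its place. Each condition had 3 arrays, 9 in all, and the labels do not state that replicates were grown as separate cultures. The p-values therefore reflect the variation among these arrays alone, and it may be technical. Attachment replicate 1 was left out by the rule that set the members and arrays. No other array correlated with it by rank above -0.0019. The values below rest on 2 attachment, 3 low attachment and 3 FP001 arrays. On these 8 arrays rank correlations lay between 0.961 and 0.985 and median intensities between 23.3 and 24.1. Precision is limited by how few arrays there are. Of 6 epithelial markers fixed for the line, the 5 with a named probe set (EPCAM, KRT7, KRT8, KRT18 and KRT19) were above the median on all 8 arrays. Their summed intensity ran from 4203 to 4359 on attachment plates, from 4407 to 4746 in low attachment and from 5127 to 5686 with FP001. Most of that sum is KRT18, and single markers went different ways: KRT7 read 115 and 130 on attachment plates and 70.4, 88.8 and 94.95 in low attachment, EPCAM 252 and 216 on attachment plates and 206, 134 and 154 with FP001, and KRT19 212 and 160.1 on attachment plates and 666, 506 and 466 with FP001. Of 5 fibroblast markers 2 had a named probe set (LUM and DCN), and their sums ran from 31.6 to 96.7, from 27.9 to 250.4 and from 82.7 to 440.1 in the same order. Leukocyte markers (CD14, 1 of 5 named) summed to 120 to 163, 139 to 160 and 108 to 151, and endothelial markers (PECAM1, VWF and KDR, 3 of 4 named) to 46.1 to 52.3, 51.2 to 55.9 and 55.8 to 71.5. The part of these markers in the results below was not tested. In bulk RNA of this kind, a change in the RNA of each cell and a change in the mixture of cells cannot be told apart.

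The mitochondrial ribosome translates the few proteins that mitochondrial DNA encodes, which are core subunits of the respiratory chain and the ATP synthase. Its ribosomal RNAs are made in the mitochondrion, whereas all of its proteins are encoded in the nucleus, made in the cytosol and imported. The small subunit binds and decodes the messenger RNA, and the large subunit forms the peptide bond and sits on the inner membrane, where the new chain is inserted. Some of its proteins have bacterial counterparts and others were added in mitochondria. In animal structures MRPS30 and MRPS18A lie in the large subunit despite their names.

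The promoters of the 5 members that passed the test in any comparison are shown. Each sequence is the 250 bases before the RefSeq start site on GRCh38.p14, 5′ to 3′ on the gene's strand. Capitals mark the ETS-family core CCGGAAG or its reverse complement. The intervals are chr13:40771191-40771440 on the minus strand for MRPS31, chr9:101398619-101398868 on the minus strand for MRPL50, chr17:75261629-75261878 on the plus strand for MRPS7, chr15:88467458-88467707 on the plus strand for MRPS11 and chr19:3762432-3762681 on the plus strand for MRPL54.
MRPS31: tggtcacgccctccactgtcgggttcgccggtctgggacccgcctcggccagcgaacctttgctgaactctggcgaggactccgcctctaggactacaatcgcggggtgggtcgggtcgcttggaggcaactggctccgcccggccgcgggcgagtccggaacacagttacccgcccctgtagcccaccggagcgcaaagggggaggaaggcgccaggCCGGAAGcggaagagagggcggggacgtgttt
MRPL50: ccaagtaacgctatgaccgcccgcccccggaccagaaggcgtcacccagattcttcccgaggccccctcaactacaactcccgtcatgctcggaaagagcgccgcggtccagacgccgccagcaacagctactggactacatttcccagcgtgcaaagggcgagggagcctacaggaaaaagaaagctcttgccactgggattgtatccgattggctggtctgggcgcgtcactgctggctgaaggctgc
MRPS7: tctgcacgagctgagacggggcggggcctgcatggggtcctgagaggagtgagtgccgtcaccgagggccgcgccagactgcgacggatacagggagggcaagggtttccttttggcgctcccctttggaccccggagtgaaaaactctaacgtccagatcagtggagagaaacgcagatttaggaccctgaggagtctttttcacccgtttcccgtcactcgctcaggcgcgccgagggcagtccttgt
MRPS11: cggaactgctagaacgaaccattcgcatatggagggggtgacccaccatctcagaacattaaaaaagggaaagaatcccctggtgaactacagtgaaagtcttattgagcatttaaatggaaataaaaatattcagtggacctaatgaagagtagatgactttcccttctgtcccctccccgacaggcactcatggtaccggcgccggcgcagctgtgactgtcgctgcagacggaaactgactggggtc
MRPL54: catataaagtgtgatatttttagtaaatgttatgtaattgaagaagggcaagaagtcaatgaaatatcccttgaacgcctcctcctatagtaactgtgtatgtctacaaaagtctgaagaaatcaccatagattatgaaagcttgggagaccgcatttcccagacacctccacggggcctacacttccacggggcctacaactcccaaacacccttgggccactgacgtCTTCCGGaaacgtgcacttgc

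Among these 5 windows the ETS core was found upstream of MRPS31, which fell, and upstream of MRPL54, which rose. RefSeq's table held 300-base promoters (250 before and 50 after the start) for 65 of the 73 protein members. Searched on both strands, CCGGAAG was in 28 of them (43.1%), against 10.7% of all 27305 promoters of that length and 14.2% of the 15842 of protein-coding genes. The YY1 core AAGATGGC was in 19 (29.2%), against 3.03% and 3.91%, and among the called members it lay 20 and 24 bases after the start of MRPS7 and MRPL50. No member's ETS and YY1 matches overlapped, and 8 members held both. Of 38 ETS matches 27 began within 50 bases of the start site, as did 15 of 20 YY1 matches. The NRF1 palindrome was in 1 member promoter (MRPL17, 1.54%), against 1.36% of all promoters and 1.75% of those of protein-coding genes. The E-box CACGTG was in 5 (7.69%), against 7.43% and 8.88%. ETS matches were about as frequent in large subunit promoters (17 of 41) as in small subunit ones (11 of 24), and YY1 matches were in 12 and 7. Members with an ETS match had median log2 fold changes of -0.04, 0.04 and 0.09 in low attachment against attachment, FP001 against attachment and FP001 against low attachment, and members without one had -0.08, -0.03 and 0.06. A match is a run of letters and is no evidence that a factor binds there.

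On the arrays, 77 of the 78 members passed the filter on low values, and all 73 protein members were among them. MRPL42P5 did not, with intensities between 3.76 and 6.85. Of the 77, 76 were at or above the array median on all 8 arrays, and the remaining one, MRPS31P5, had a mean intensity of 24.7. The median over members of the mean intensity was 182, against 86.7 over the 10916 genes tested. The probe sets with the most intensity were those of MRPS21 (a small subunit protein with a bacterial counterpart, 1636), MRPS35 (918) and MRPL58 (a peptidyl-tRNA hydrolase built into the large subunit, 886). Intensities of different probe sets depend on their probes, so this order is one of signals and not of transcript levels.

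The first comparison asked how loss of attachment affected these genes. MRPS31, a mitochondria-specific protein of the small subunit (probe set 16778400), was the 1 member of 77 that passed the test, and it fell. Its intensities were 131 and 116 on the attachment arrays, 82.1, 77.7 and 94.3 on the low attachment arrays and 87.1, 90.9 and 88.1 with FP001. Both attachment arrays were thus above all 6 low-attachment arrays. In low attachment against attachment it was 1.46-fold lower (log2 fold change -0.55 ± 0.11, SE from limma; adjusted p = 0.0114). The call did not survive leaving out attachment replicate 2 (-0.45, adjusted p = 0.11). Its pseudogene MRPS31P5, which may share probes or transcripts with it, read 30.04 and 26.5 on attachment plates against 23.5, 25.7 and 25.1 (log2 fold change -0.19 ± 0.13, adjusted p = 0.384), and whether the probes of one also bind the other was not tested. Over all genes tested 10.1% were called in this comparison (4.31% up and 5.76% down), against 1.30% of the members. By direction, 471 genes rose and 629 fell, against 612 and 512 with quantile normalization.

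**Figure D1:**
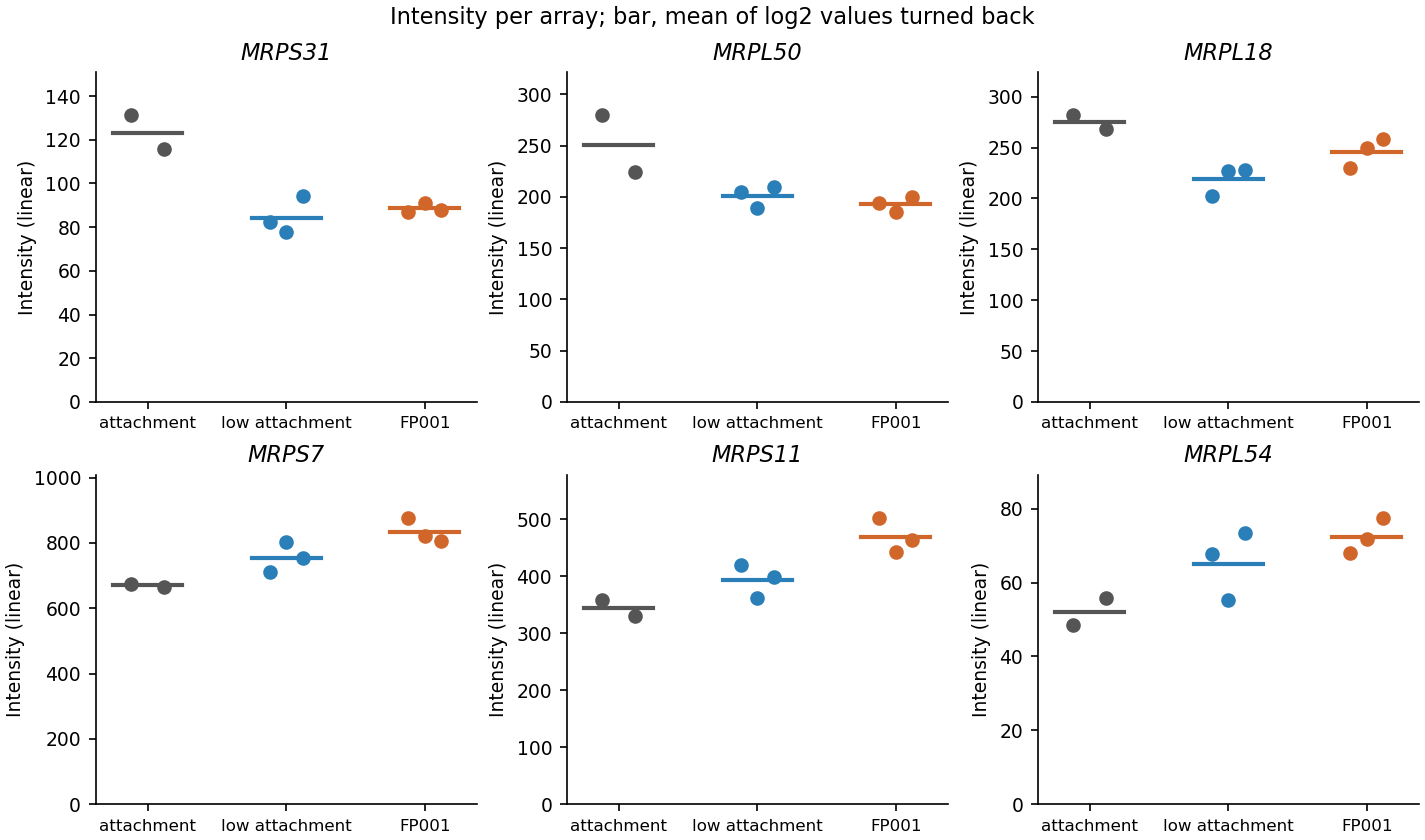
Intensity on a linear scale (y axis, from 0) on each array for MRPS31, MRPL50, MRPL18, MRPS7, MRPS11 and MRPL54 by culture condition (x axis); points are arrays and bars are geometric means. MRPS31 sits at 131 and 116 on attachment plates and at 94.3 or less on all 6 low-attachment arrays, whereas MRPS7 and MRPS11 step up from attachment to low attachment to FP001.

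Other members with large falls in this comparison did not pass the test. MRPL18, a protein of the large subunit's central protuberance, read 282 and 269 on attachment plates and 203, 227 and 228 in low attachment, so the groups did not overlap. Its log2 fold change was -0.33 ± 0.09 with an adjusted p of 0.0503. With the replicate number as a block it was called (-0.28 ± 0.08, adjusted p = 0.0489), so that 2 members fell in that fit. The block also covered the attachment arrays, whose numbers showed no pairing with the other groups. MRPL18 was called as well with the mean of probe sets and without FP001 replicate 1. For MRPL52 the log2 fold change was -0.46 ± 0.14 (adjusted p = 0.0648), for MRPL39 -0.38 ± 0.14 (0.114), for the pseudogene MRPL45P2 -0.34 ± 0.16 (0.205) and for MRPL50 -0.32 ± 0.11 (0.0899). Each of these 4 was lower on all 3 low attachment arrays than on both attachment arrays, by a small margin for MRPL39. The largest positive values were those of MRPL54 (0.32 ± 0.13), MRPL43 (0.20 ± 0.13), MRPL53 (0.20 ± 0.09), MRPS11 (0.19 ± 0.10), MRPS7 (0.17 ± 0.08) and MRPS16 (0.13 ± 0.08), with adjusted p-values from 0.155 to 0.362.

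The members as a group were slightly lower in low attachment, by an amount that rested partly on 1 array. Their median log2 fold change was -0.08, against 0.01 over all genes tested, and 21 of 77 had a positive value (27.3%, against 51.5% of all genes). Groups did not overlap for 20 members that were lower and 5 that were higher (26.0% and 6.49%), against 23.4% and 22.2% of all genes. The fall was not particular to the members. Among the gene lists read below, 49 cytosolic ribosomal proteins had a median of -0.10 (9 positive) and 12 translation factors -0.17 (4 positive). Medians were -0.14 for 21 assembly and ribosomal RNA modification genes (6 positive) and -0.20 for 8 genes of mitochondrial DNA expression (0 positive). Only the 5 regulators had a median above 0 (0.04). The large subunit had a median of -0.09 with 12 of 48 positive, and the small subunit a median of -0.05 with 8 of 25 positive. The small subunit's median was -0.0038 with 12 positive under quantile normalization, -0.0080 with 11 positive with arrays centred on the upper quartile and -0.012 with the replicate block. Without low attachment replicate 1 the median of all members was -0.02 with 30 positive, and without low attachment replicate 3 it was -0.11 with 15 positive. Quantile normalization gave -0.02 for the members and 0.04 for all genes, so the difference from all genes, -0.08 in the deposited scaling, was -0.06. For 64 of the 77 members the 95% interval lay within 0.5 of 0 on the log2 scale (less than 1.41-fold either way), which held for 61.3% of all genes. Interval width follows the SE, which was smaller for members. Its median was 0.099 for members and 0.12 for all genes in both comparisons with attachment. In FP001 against low attachment it was 0.089 and 0.11.

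In FP001 against attachment, where plate and medium differed together, 3 members rose and 2 fell. MRPS11 and MRPS7, small subunit proteins with bacterial counterparts, rose with MRPL54, a mitochondria-specific protein of the large subunit. MRPS31 and MRPL50, both mitochondria-specific, fell. These are 5 of 77 members (6.49%; 3.90% up and 2.60% down), against 19.5% of all genes tested (8.08% up and 11.4% down). By direction, 882 genes rose and 1244 fell, against 1241 and 968 with quantile normalization. Both comparisons used the same 2 attachment arrays, so a chance value there enters both.

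MRPS11 (probe set 16804458) read 359 and 331 on attachment plates, 420.2, 362 and 399 in low attachment and 503, 443 and 464 with FP001. All 3 FP001 arrays were above the other 5. It rose 1.36-fold against attachment (log2 fold change 0.45 ± 0.10, adjusted p = 0.0108) and lost its call when attachment replicate 3 was left out (0.39, adjusted p = 0.077). MRPS7 (16837754), which contacts the messenger RNA path in the head of the small subunit, read 675 and 665, then 710.1, 802 and 755, then 878, 821 and 806. The 3 conditions thus stood in that order with no overlap, and it rose 1.25-fold (0.32 ± 0.08, adjusted p = 0.0226). MRPL54 (16857047), at 48.4 and 55.7 on attachment plates and 67.9, 71.7 and 77.6 with FP001, rose 1.39-fold (0.48 ± 0.13, adjusted p = 0.0319). Its low attachment arrays read 67.7, 55.2 and 73.4 and overlapped both other groups.

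MRPS31 was 1.39-fold lower with FP001 than on attachment plates (-0.47 ± 0.11, adjusted p = 0.0142). MRPL50 (17096631) read 279.7 and 224 on attachment plates, 205, 189 and 209.6 in low attachment and 194, 186 and 200.3 with FP001. It fell 1.29-fold (-0.37 ± 0.11, adjusted p = 0.036), and the 2 attachment arrays lay farther apart than the other 6 arrays did. Leaving out attachment replicate 2 ended the call for MRPS31 (adjusted p = 0.126), MRPS7 (0.102), MRPL54 (0.209) and MRPL50 (-0.21, adjusted p = 0.292), so that MRPS11 was the 1 member called. Without attachment replicate 3 MRPS7 (0.0978) and MRPL54 (0.0609) were lost too, leaving 2 members. Leaving out FP001 replicate 1 (MRPS7, 0.0596; MRPL50, 0.0688), FP001 replicate 2 (MRPS7, 0.053; MRPL54, 0.0692; MRPL50, 0.096) or FP001 replicate 3 (MRPL54, 0.0747; MRPL50, 0.0527) also ended calls, as did leaving out low attachment replicate 3 for MRPL50 (0.0516). With quantile normalization MRPL50 was not called (-0.30, adjusted p = 0.0588) and MRPL33, MRPS16, MRPS21 and MRPS22 were called as higher, giving 7 members up and 1 down.

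**Figure D2:**
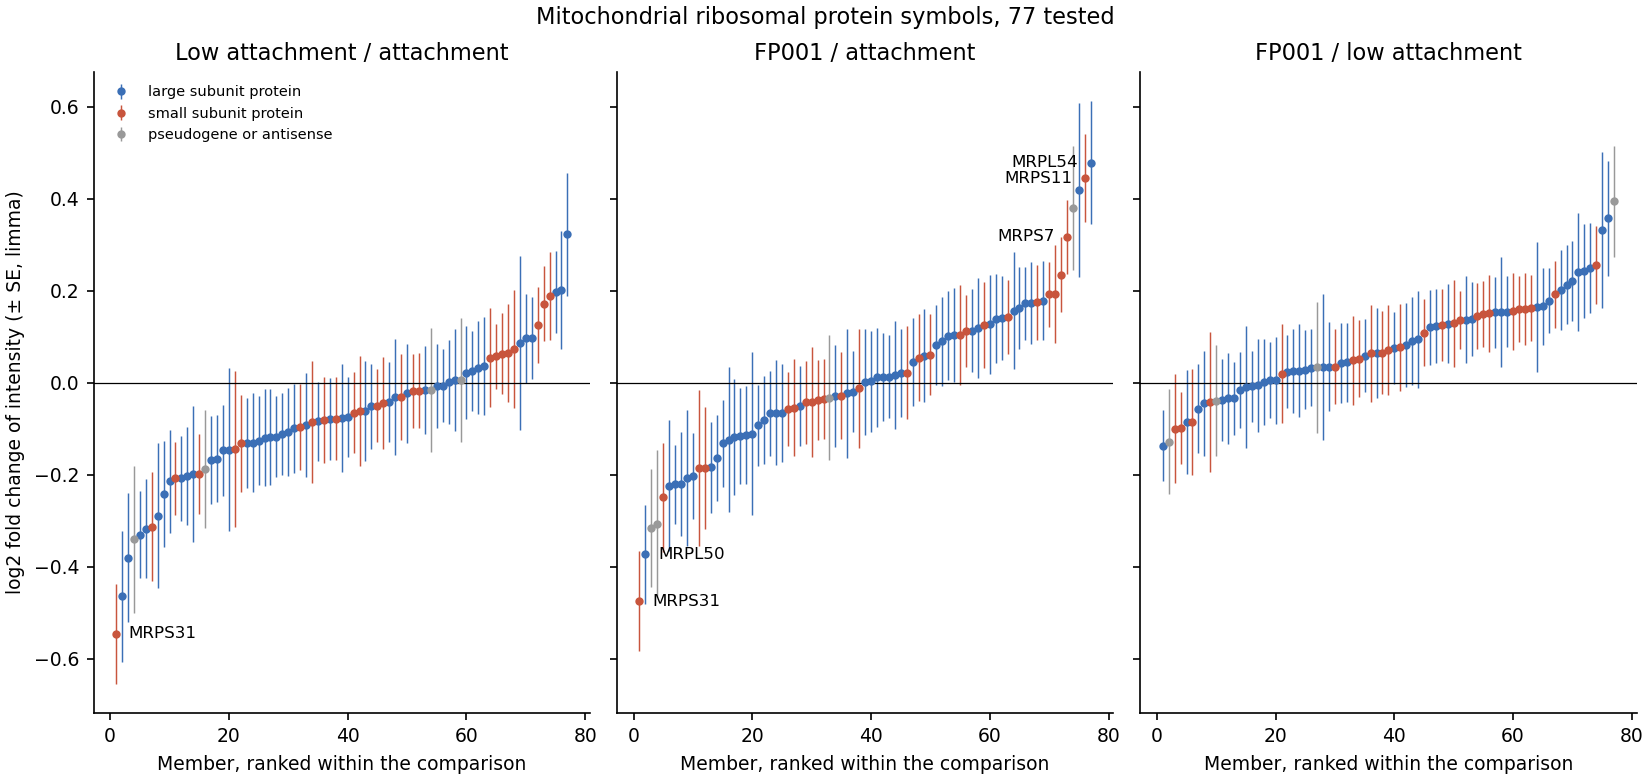
log2 fold change (y axis) with its standard error from limma for each of the 77 tested members, ranked within each comparison (x axis), with large subunit proteins in blue, small subunit proteins in red and pseudogenes or antisense transcripts in grey. The 1 called member of the left panel and the 5 of the middle panel carry their symbols; most points of the right panel lie above 0 and none was called there.

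Near the threshold in this comparison were members with a log2 fold change of 0.24 ± 0.08 (MRPS16, adjusted p = 0.0685) and 0.38 ± 0.13 (MRPL23-AS1, 0.0715). MRPS16 was called with the replicate block (0.25 ± 0.08, adjusted p = 0.0416). MRPL1, a protein of the stalk beside the exit site for transfer RNA, had 0.42 ± 0.19 (adjusted p = 0.142) and intensities of 53.1 and 45.2 on attachment plates against 75.2, 55.6 and 67.1. On the low side MRPS31P5 had -0.32 ± 0.13 (0.107), MRPL45P2 -0.31 ± 0.16 (0.196), MRPS30 -0.25 ± 0.12 (0.162) and MRPL52 -0.22 ± 0.14 (0.287). The median of all members was 0.00, against 0.02 over all genes, and 39 of 77 were positive (50.6%, against 52.5%). With quantile normalization both medians were 0.07, and 57 members were positive. Groups did not overlap for 19 members that were higher (24.7%, against 26.5% of all genes) and 15 that were lower (19.5%, against 26.2%). Large and small subunits had medians of 0.00 and 0.02, with 25 of 48 and 13 of 25 positive, and of 0.07 and 0.10 with 34 and 21 positive under quantile normalization. The 95% interval lay within 0.5 of 0 for 64 members (83.1%), against 53.6% of all genes.

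The third comparison asked what FP001 changed on low-attachment plates. No member passed limma's test, against 0.11% of all genes tested (0.0366% up and 0.0733% down), and 12 of 77 members had an unadjusted p under 0.05 (15.6%, against 11.6% of all genes). With the replicate number as a block, where the call rate over all genes rose to 1.30%, the count of members was again 0, with 15 at an unadjusted p under 0.05. Most members nevertheless stood slightly higher with FP001: 60 of 77 had a positive log2 fold change (77.9%, against 51.6% of all genes), with a median of 0.07 against 0.01. All 3 FP001 arrays were above all 3 low attachment arrays for 23 members (29.9%, against 8.48% of all genes), and 0 members showed the reverse (against 9.01%).

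The 23 members held 11 of the 48 large subunit proteins (22.9%), 11 of the 25 small subunit proteins (44.0%) and the antisense transcript MRPL23-AS1. The share over all genes was 8.48%. The largest log2 fold changes were those of MRPL23-AS1 (0.39 ± 0.12, adjusted p = 0.26), MRPL39 (0.36 ± 0.13, 0.322), MRPL1 (0.33 ± 0.17, 0.486), MRPS11 (0.26 ± 0.09, 0.304), MRPL13 (0.25 ± 0.10, 0.365) and MRPL23 (0.24 ± 0.10, 0.404). MRPL39, a mitochondria-specific protein of the large subunit, read 78.9, 98.9 and 77.2 in low attachment and 121, 103 and 102 with FP001, beside 121 and 99.5 on attachment plates. FP001 and attachment arrays therefore overlapped, and both were above the low attachment arrays, by a small margin for attachment (99.5 against 98.9). MRPL23, which lines the exit of the peptide tunnel, read 30.2, 28.7 and 31.9 in low attachment, 35.7, 34.7 and 37.1 with FP001 and 33.7 and 38.0 on attachment plates, in the same arrangement. MRPL58 read 866, 826 and 844 in low attachment and 996, 892 and 985 with FP001, and MRPS35 read 827, 904 and 889 against 1005, 1005 and 923. Both pairs of groups were separate, by a small margin for MRPS35.

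The lowest values of this comparison were small. MRPL45, which anchors the ribosome to the inner membrane, had a log2 fold change of -0.14 ± 0.08, MRPS31P5 of -0.13 ± 0.11, MRPS27 of -0.10 ± 0.12, MRPS18B of -0.10 ± 0.08, MRPL27 of -0.09 ± 0.11 and MRPS25 of -0.09 ± 0.12. MRPL45 read 830.0, 949.8 and 936 in low attachment and 806, 860.0 and 801 with FP001, with overlap. For 73 of 77 members the 95% interval lay within 0.5 of 0 (94.8%, against 82.9% of all genes), and the exceptions were MRPL1, MRPL23-AS1, MRPL39 and MRPL52.

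Same-numbered arrays of the low-attachment groups varied together, so the shift was also read within each number. FP001 minus normal medium had a median over members of 0.13 for number 1, 0.06 for number 2 and 0.05 for number 3, with 64, 52 and 48 of 77 members positive. Over all genes the medians were 0.01, -0.01 and 0.00. In all 3 pairs 35 members were higher with FP001 (45.5%, against 20.8% of all genes), and 5 were lower (MRPL35, MRPL45, MRPL50, MRPL53 and MRPS18B), against 20.7% of all genes. The size of the shift depended most on the low attachment arrays: without low attachment replicate 1, whose members stood lowest of the 8 arrays, the median of the comparison was 0.04 with 52 members positive, and without low attachment replicate 3 it was 0.11 with 65 positive. Without FP001 replicate 1 it was 0.09 with 60 positive. Quantile normalization gave 0.09 for members and 0.02 for all genes.

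**Figure D3:**
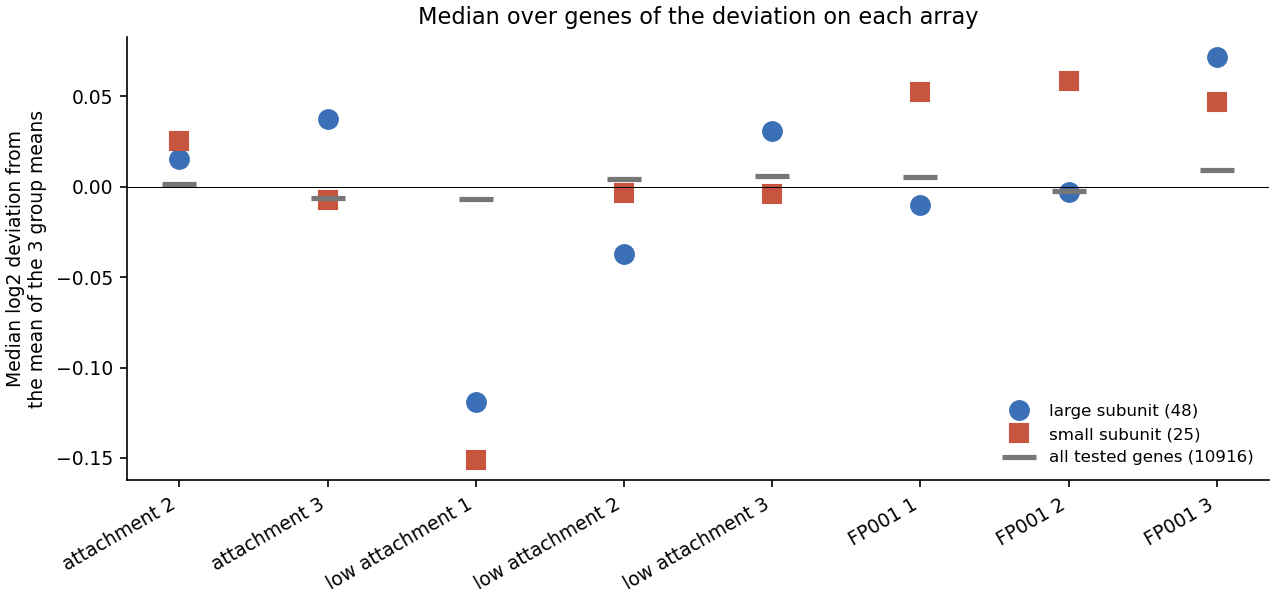
Median over genes of the log2 deviation from the mean of the 3 group means (y axis) on each array (x axis), for 48 large subunit proteins, 25 small subunit proteins and all 10916 tested genes. Low attachment 1 stands lowest for both subunits at -0.12 and -0.15, while all genes stay between -0.01 and 0.01.

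The subunits were set against each other through these deviations, since levels of different probe sets cannot be compared. On low attachment replicate 1 the median deviation was -0.12 for the large and -0.15 for the small subunit, while it was -0.01 over all genes. Large minus small came to -0.01 and 0.04 on the attachment arrays, to 0.03, -0.03 and 0.03 on the low attachment arrays and to -0.06, -0.06 and 0.02 on the FP001 arrays. The groups overlapped, and the SD between replicates was 0.04. From the fold changes, the median of the large subunit minus that of the small subunit was -0.04 in low attachment against attachment, -0.02 in FP001 against attachment and -0.05 in FP001 against low attachment. The last was -0.0095 with the mean of probe sets and -0.0051 without FP001 replicate 2. Without attachment replicate 2 the value in FP001 against attachment was -0.11, and without attachment replicate 3 that in low attachment against attachment was 0.0075. In FP001 against low attachment, the subunits' own medians were 0.06 (37 of 48 positive) and 0.11 (21 of 25 positive). The latter was the value of MRPS16 from the brighter of its probe sets, while the dimmer one had -0.02. With MRPS30 and MRPS18A moved to the large subunit by structure, the 3 differences were -0.05, -0.06 and -0.06. Grouped by origin, 44 bacterial-type proteins had medians of -0.07, 0.01 and 0.08 in the 3 comparisons, and 29 mitochondria-specific proteins had -0.08, 0.00 and 0.07.

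Of the members called, MRPS31, MRPL50 and MRPL54 were mitochondria-specific and MRPS11 and MRPS7 bacterial-type. Members with several probe sets could be compared within themselves. MRPS16 had 2, with log2 fold changes in FP001 against attachment of 0.24 ± 0.08 and 0.13 ± 0.11, and MRPS2 had 2 with 0.13 ± 0.09 and -0.04 ± 0.09, of opposite sign. The brighter MRPL44 probe set had -0.12 ± 0.16, and its other one was near the bottom of the scale at a mean intensity of 3.44. All 7 probe sets of MRPS18B held identical values on the 8 arrays and count as 1 measurement.

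Some members share a promoter region with a neighbour on the opposite strand. In RefSeq, 17 of the 65 protein members (26.2%) had a protein-coding gene starting head to head within 1000 bases, against 10.3% of protein-coding promoters overall. In 9 such pairs both genes were tested. Both had the same sign in 5 pairs in low attachment against attachment, 5 in FP001 against attachment and 8 in FP001 against low attachment. In the last, 77.9% of members and 51.6% of all genes were positive. How often unrelated genes share a sign was not tested. In 8 of the pairs the partner was no member. Of those 8 partners, 2 were called in FP001 against attachment, where 19.5% of all genes were called (11.4% down). One pair joins both subunits: MRPS11 and MRPL46, a central protuberance protein of the large subunit, start 320 bases apart. MRPL46 read 342 and 408 on attachment plates, 332, 353 and 339 in low attachment and 378, 422 and 394 with FP001. In FP001 against attachment its log2 fold change was 0.09 ± 0.10 (adjusted p = 0.531), beside 0.45 ± 0.10 for MRPS11, and the difference between the 2 genes was not tested. In FP001 against low attachment the values were 0.22 ± 0.09 and 0.26 ± 0.09, and both genes were higher on all 3 FP001 arrays. MRPL50 starts 233 bases from ZNF189, a zinc finger gene, which also fell in FP001 against attachment (-0.88 ± 0.15, adjusted p = 0.00411; without attachment replicate 2, 0.0568). MRPS27 starts 133 bases from PTCD2, a mitochondrial RNA-processing protein, which fell (-0.56 ± 0.14, adjusted p = 0.0212) while MRPS27 had -0.18 ± 0.13 (0.342). The PTCD2 call was lost without attachment replicate 2 (0.128) or 3 (0.077) and without FP001 replicate 1 (0.06) or 2 (0.0658). Of the other partners tested (CYB5RL, FAU, SKA3, EME1, HIRA and PIERCE1) none was called by limma in any comparison.

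Other genes of mitochondrial translation were read from lists chosen with results of these data known. Of 12 translation and membrane insertion factors, 0 were called in low attachment against attachment, and 2 fell in FP001 against attachment (16.7%, near the 19.5% of all genes called there, with 11.4% called down). OXA1L, the insertase that takes up the chain from the ribosome, read 1600.2 and 1541 on attachment plates, 1432, 1422 and 1509 in low attachment and 1249, 1264 and 1274 with FP001, so that the 3 conditions did not overlap. It fell 1.24-fold with FP001 against attachment (-0.31 ± 0.07, adjusted p = 0.0105; without attachment replicate 2, 0.0868). MRRF, the ribosome recycling factor, fell 1.49-fold (-0.57 ± 0.14, adjusted p = 0.0217), and its call was lost without attachment replicate 2 (0.121) or 3 (0.0848) and without FP001 replicate 1 (0.0591) or 2 (0.0635). The list's medians were -0.17, -0.23 and 0.02 in the 3 comparisons. Those against attachment were -0.10 and -0.15 with quantile normalization and -0.09 and -0.12 with the replicate block.

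Of 21 genes of ribosome assembly and ribosomal RNA modification, 1 was called in FP001 against attachment (4.76%, against 19.5% of all genes) and 0 in the other comparisons (against 10.1% and 0.11%). This was MALSU1, which binds the large subunit during assembly and fell 1.31-fold (-0.39 ± 0.10, adjusted p = 0.0261), but not without attachment replicate 2 (0.189) or FP001 replicate 1 (0.063) or 2 (0.0687). Of 8 genes of mitochondrial DNA expression, 1 was called in each comparison with attachment (12.5%, against 10.1% and 19.5% of all genes). TRMT10C, a subunit of mitochondrial RNase P, fell in low attachment against attachment (-0.41 ± 0.11, adjusted p = 0.0456). It read 147 and 142 on attachment plates, 105, 97.5 and 126 in low attachment and 131, 132 and 136 with FP001. That call was lost with quantile normalization (adjusted p = 0.0687), with no filter (0.0575), with no variance trend (0.0561), with arrays centred on the upper quartile (0.0584), and without either attachment replicate, low attachment replicate 1 or 2 or FP001 replicate 2 or 3 (0.0645 to 0.205). POLRMT, the mitochondrial RNA polymerase, fell in FP001 against attachment (-0.46 ± 0.12, adjusted p = 0.0275), a call lost with quantile normalization (0.0584) and without any 1 of the attachment or FP001 arrays (0.0508 to 0.145). Ribosomal proteins under other symbols were not called: DAP3 had 0.04, CHCHD1 0.02 and PTCD3 -0.51 (adjusted p = 0.0501) in FP001 against attachment. The 5 regulators tested (NRF1, YY1, MYC, MAX and ESRRA) and 2 subunits of the mitochondrial glutamyl-tRNA amidotransferase (GATB and QRSL1) were not called by limma in any comparison either.

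**Figure D4:**
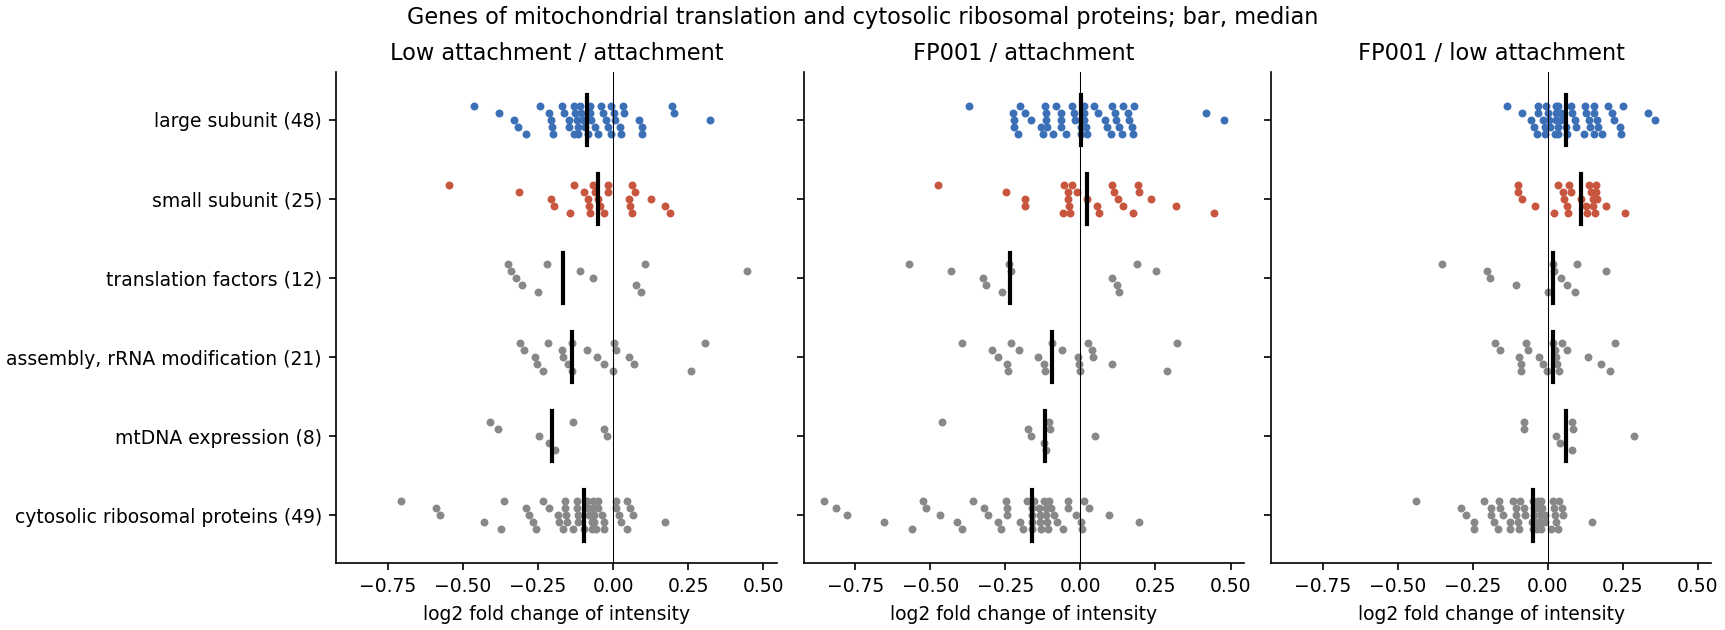
log2 fold change (x axis) of each tested gene in 6 lists (y axis, number of genes in parentheses) for the 3 comparisons; black bars are list medians. In FP001 against low attachment both subunits have medians above 0 (0.06 and 0.11) and cytosolic ribosomal proteins one below 0 (-0.05).

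Proteins of the cytosolic ribosome stood the other way in the FP001 comparison. Of 49 tested, 10 had positive values in FP001 against low attachment (20.4%, against 77.9% of the mitochondrial members) with a median of -0.05, and 0 were called by limma (1 with the replicate block; 5 at an unadjusted p under 0.05). The within-number medians were -0.01, -0.08 and -0.13. The sign of that median held under quantile normalization (-0.05) and with arrays centred on the upper quartile (-0.03), and it was -0.02 with 19 positive without low attachment replicate 3. Against attachment 1 fell in low attachment (2.04%, against 5.76% of all genes called down) and 10 fell with FP001 (20.4%, against 11.4%). None was called as higher, and in either direction 10.1% and 19.5% of all genes were called. The largest changes among the 10 were those of RPS27L (-0.85 ± 0.13, adjusted p = 0.00165), RPL28 (-0.81 ± 0.11, 0.00129), RPL29 (-0.78 ± 0.20, 0.0232) and RPL32 (-0.65 ± 0.19, 0.0354). RPS28 changed less (-0.41 ± 0.07, 0.00252). The RPL29 call was lost without FP001 replicate 1 (0.0622) or 2 (0.0609). That count of 10 was 3 and 4 without attachment replicate 2 or 3 and 5 without FP001 replicate 1 or 2. The gene called in low attachment was RPS27L, a paralogue known as a p53 target (-0.71 ± 0.13, adjusted p = 0.00719; without attachment replicate 2, 0.0812). The count in low attachment was 0 without attachment replicate 2, 5 without FP001 replicate 1, 2 without FP001 replicate 3 and 3 with the replicate block.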

How the data were processed

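Total RNA was labelled by a 3' in vitro transcription protocol and read on Affymetrix arrays, per the labels' protocols. The probe set identifiers resemble those of a whole-transcript array, which that labelling and MAS5 do not usually go with. This was not settled, so which part of a transcript an intensity measures is uncertain. Per the submitters' processing notes MAS5 was the authors' tool, and the deposited table holds a linear intensity for every probe set on every array. The sources used here do not give its version or scaling, the probes' positions or the strand they read. Columns carried the samples' own identifiers, and groups and replicate numbers came from the titles.

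Of 53617 probe sets, 16098 carried 1 gene symbol in GEO's platform annotation (0 several, 37519 unnamed here), and all 78 members matched a RefSeq gene identifier under the same symbol. Members and gene lists were chosen with earlier results of these data known. Intensities were taken as log2 with no pseudocount or further normalization. A probe set was kept if 3 or more of the 8 arrays had it at or above their median, which can drop a gene seen on attachment plates alone. Each gene was represented by its brightest kept probe set, giving 10916 genes. A single limma model (version 3.58.1, R 4.3.3) held the means of the 3 groups, with eBayes and a variance trend (5 residual and 5.6 prior degrees of freedom). Tests were two-sided, with Benjamini-Hochberg adjustment over all 10916 genes, and an adjusted p below 0.05 was a call. Group intensities are geometric means.

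Named genes were, per comparison, all called members, the 6 largest rises and falls, the 3 brightest members, members with several probe sets and up to 4 called genes of each list. MRPL46, MRPL35, ZNF189, PTCD2, RPS28, the other neighbours and list genes that were not called were named after their values were seen. So were members named for one setting. Deviations of same-numbered low attachment and FP001 arrays from their group means correlated at 0.483, 0.309 and 0.231, each above the values with other numbers, so these numbers were taken to pair the samples. Attachment arrays showed no such pairing (-0.205 and 0.138 with low attachment, -0.256 and 0.0076 with FP001). The replicate block nevertheless included them by number, which limits its comparisons with attachment. Sequences, start sites and neighbours came from RefSeq tables of GRCh38.p14. Alternatives were quantile normalization, centring, other filters, the mean of probe sets, all 9 arrays, the block, no trend, each array left out, current symbols and protein genes alone.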

Additional observations from a re-analysis of the deposited data

How the results depend on the processing

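The count of members called in low attachment against attachment (1) was 2 with the mean of probe sets, 2 with the replicate block and 0 with all 9 arrays, and ranged from 0 to 2 with 1 array left out. The count in FP001 against attachment (5) was 8 with quantile normalization, 7 with arrays centred on their upper quartile (an alternative chosen after seeing the data) and 0 with all 9 arrays, and ranged from 1 to 6 with 1 array left out. The replicate block gave 6 there and 0 in FP001 against low attachment, where the count was 0 in every alternative run. The blocked fit changed no call of a member other than those of MRPL18 and MRPS16. With all 9 arrays no gene of the whole table was called in any comparison, the median of all genes moved to 0.70 in low attachment against attachment, and the log2 fold change turned to 0.037 and 0.11 for MRPS31, -0.94 for MRPL54, 0.72 for MRPL50 and 1.34 for MRPL18. Large minus small subunit was then -0.17 and -0.16 against attachment. It ranged from -0.071 to 0.0075 in low attachment against attachment, from -0.11 to -0.0061 in FP001 against attachment and from -0.083 to -0.0051 in FP001 against low attachment with 1 array left out. In the last it was -0.0095 with the mean of probe sets, and in FP001 against attachment it was -0.064 by structure. Current symbols and protein genes alone left all 3 counts as they were. Where an attachment array was left out, the lone one was assumed to vary like the other groups. Causes of these changes were not tested, apart from the array left out or added.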
